A study of Mus musculus with 4 samples.

Results

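The genes described here were 9 regulators and markers of endoderm, chosen by symbol from the 28250 genes with an expression value: the chemokine receptor gene Cxcr4, the secreted protein gene Afp and the transcription factor genes Sox17, Sox7, Gata4, Gata6, Foxa1, Foxa2 and Hnf4a. TBV2 cells, a feeder-dependent mouse embryonic stem cell line, were treated in the presence of LIF, a cytokine that keeps them undifferentiated. They were sequenced as poly(A) RNA after 24 h with solvent (2 libraries) or 24 h with 5 µM MS-275 (2 libraries). Whether these cultures held feeder cells is not stated in the sources used here. MS-275, also called entinostat, inhibits class I histone deacetylases, the enzymes that take acetyl groups off histones. The labels name the control agent only as solvent and give no genetic change that separates the groups. They do not say whether the 2 libraries of a group came from separate cultures, so the spread behind the p-values may be technical. With so few libraries limma takes a gene's variance largely from the other genes, above all in fits with a replicate block. Standard errors and p-values of those fits therefore do not measure the gene's own spread between libraries. All 9 genes had a value in all 4 libraries, and all 9 passed the filter on low values (at least 0.001 in at least 2 libraries), as did 20336 genes in all.

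Endoderm arises in the mouse embryo at separate times. Primitive endoderm forms beside the pluripotent epiblast in the blastocyst and gives the yolk sac layers, and definitive endoderm leaves the primitive streak at gastrulation and gives the gut, liver and pancreas. GATA6, GATA4, SOX17 and SOX7 act in the primitive lineage, SOX17, FOXA2 and CXCR4 also mark definitive endoderm, FOXA1 and FOXA2 open chromatin ahead of liver and gut genes, HNF4A is a nuclear receptor of visceral endoderm and liver, and AFP, alpha-fetoprotein, is a secreted product of both. Undifferentiated embryonic stem cells hold these genes at low levels.

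In these cells Cxcr4, Sox17, Afp and Foxa2 were higher and Hnf4a was lower in both MS-275 libraries than in both solvent libraries. Of all tested genes 32.3% and 12% were so. Cxcr4, Sox17, Afp and Hnf4a passed an adjusted p of 0.05 in the limma fit with a replicate block and in both count-based fits on alignment positions. The block sets each MS-275 library against the solvent library of the same number. Without the block none of the 9 passed in limma on all 4 libraries (at p below 0.05 before adjustment, 3 were higher, beside 14.6% of all genes, and 0 lower, beside 2.77%). Background for these counts was 0.00492% of 20336 genes called higher and 0% called lower without the block, against 21% higher and 6.46% lower with it. The other 5 genes (Sox7, Gata4, Gata6, Foxa1 and Foxa2) did not pass in any fit run. On distinct positions 13.9% of genes were called higher and 4.66% lower without the block, and 28.1% and 12.4% with it. In bulk libraries, a changed share of cells of a type and a changed level of RNA per cell cannot be told apart. The median log2 difference of the 9 was 0.42, beside 0.20 over all genes tested.

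The promoters of the called genes are shown because Cxcr4 and Afp, both higher with MS-275, differ widely in CG content, and because Hnf4a, which moved the other way, has separate start sites. Each run is 300 bases, from 250 before to 50 after an annotated RefSeq start (mouse build GRCm38.p6), 5′ to 3′ on the gene's strand, with CG dinucleotides in capitals. The windows are Cxcr4 at chr1:128592250-128592549 on the minus strand, Afp at chr5:90490464-90490763 on the plus strand, and Hnf4a at chr2:163506607-163506906 and chr2:163546905-163547204 on the plus strand. RefSeq promoter entries were at hand for 5 of the 9 genes, and Sox17, Sox7, Gata4 and Gata6 had none.

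Cxcr4: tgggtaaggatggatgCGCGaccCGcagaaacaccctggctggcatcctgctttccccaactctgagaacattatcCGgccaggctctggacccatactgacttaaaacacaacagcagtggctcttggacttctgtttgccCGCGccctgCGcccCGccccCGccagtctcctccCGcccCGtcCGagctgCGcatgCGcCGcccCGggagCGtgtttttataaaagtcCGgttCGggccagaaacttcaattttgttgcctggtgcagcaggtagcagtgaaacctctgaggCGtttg

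Afp: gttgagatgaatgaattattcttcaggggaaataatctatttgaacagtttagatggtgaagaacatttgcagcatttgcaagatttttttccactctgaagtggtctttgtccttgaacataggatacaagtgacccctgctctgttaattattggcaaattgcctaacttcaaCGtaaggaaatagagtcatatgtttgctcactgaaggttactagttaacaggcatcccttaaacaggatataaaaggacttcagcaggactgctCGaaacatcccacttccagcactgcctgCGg

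Hnf4a, upstream start: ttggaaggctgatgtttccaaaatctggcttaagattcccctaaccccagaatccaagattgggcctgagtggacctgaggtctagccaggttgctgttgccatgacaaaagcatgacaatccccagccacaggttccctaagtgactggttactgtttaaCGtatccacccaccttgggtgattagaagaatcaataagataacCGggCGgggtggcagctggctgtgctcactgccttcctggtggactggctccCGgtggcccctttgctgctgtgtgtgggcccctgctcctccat

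Hnf4a, downstream start: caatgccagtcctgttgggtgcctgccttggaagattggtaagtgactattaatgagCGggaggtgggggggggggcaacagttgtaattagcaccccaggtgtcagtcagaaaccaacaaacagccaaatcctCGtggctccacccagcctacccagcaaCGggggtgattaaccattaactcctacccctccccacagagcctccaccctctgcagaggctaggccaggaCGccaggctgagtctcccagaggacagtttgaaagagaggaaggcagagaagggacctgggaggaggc

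The Cxcr4 window held 20 CG dinucleotides, at the 73.5 percentile of 32851 promoter windows, whose median was 7. The Afp window held 3, at the 23.3 percentile, and both Hnf4a windows held 4, at the 31.4 percentile. Cxcr4 thus lay above the median promoter, and Afp and Hnf4a lay below it. The Foxa1 window held 26, and the 3 Foxa2 windows held 12, 23 and 13. Letters bound by members of these families were searched on both strands. TGTTTGC, a forkhead-type motif, stood in the Afp and Cxcr4 windows and in 5.07% of all windows, and TGTTTAC, another, stood in the Foxa1 window and in 3.65% of all. The zinc-finger motif AGATAA stood in the upstream Hnf4a window and 1 Foxa2 window and in 11.2% of all. No window of these genes held TGATAA (9.05% of all), the SOX motif AACAAT (10.7%) or the HNF4 motif CAAAGTCCA (0.475%). No motif searched was contained in another. A match is a string of letters and not a measured binding site.

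The main unit is a normalized expression value that the authors computed per gene. It has no read count attached, so the deposited alignments, which are 35 bases long in mouse build mm9, were also counted over exons. The libraries held between 9785619 and 23467935 alignments. In the first-numbered libraries of both groups 53.2% and 54.4% of alignments repeated a position and strand already used, and in the second-numbered libraries 0 did, so distinct positions were counted. Within each group the values of a replicate matched the other replicate's alignment file. Over 9138 genes with at least 100 alignments the median absolute log2 difference was 1.08 as deposited and 0.0856 after exchange in solvent, and 1.20 and 0.142 in MS-275. An exchange within a group leaves the comparison of groups as it is, but a replicate number below names different libraries for values and for positions. Of the stem cell markers Pou5f1, Nanog and Sox2 had values from 0.575 to 3.35 in all 4 libraries, above every value of the 9 endoderm genes, which reached 0.180 at most.

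**Figure D1:**
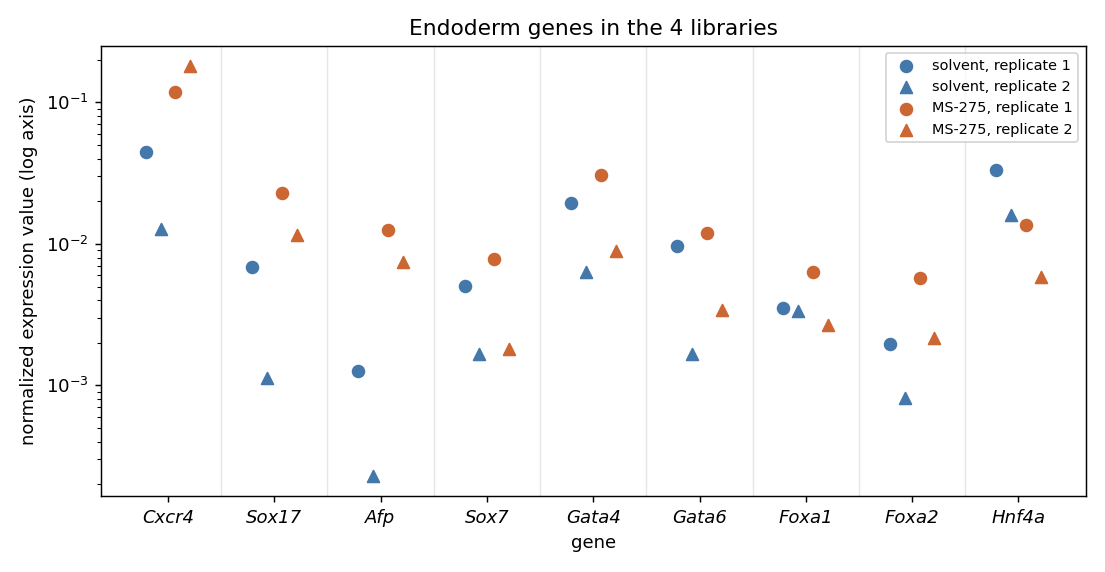
Normalized expression value (log axis) of the 9 endoderm genes in each library, with solvent in blue, MS-275 in orange, circles for replicate 1 and triangles for replicate 2. For Cxcr4, Sox17, Afp and Foxa2 both orange points lie above both blue points, and for Hnf4a both lie below. For every gene but Cxcr4 replicate 1 is higher than replicate 2 in both groups.

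Cxcr4 encodes the receptor of the chemokine CXCL12 and is used to sort definitive endoderm cells. Its value was 0.0445 and 0.0127 in the solvent libraries and 0.118 and 0.180 in the MS-275 libraries, so that the lowest treated library lay above the highest control. It had the highest value of the 9 genes in every library but solvent replicate 2, where Hnf4a was at 0.0160. The means were 0.0286 ± 0.0225 (SD, n = 2) and 0.149 ± 0.0437 (SD, n = 2). Within the replicate pairs the value rose 2.65-fold and 14.2-fold. The log2 difference, taken on log2(value + 0.005) here and below, was 2.35 with a standard error of 0.363 in the limma fit with the block (adjusted p = 0.000225) and of 0.594 without it (adjusted p = 0.0848). Without the block, leaving out solvent replicate 1 gave 3.09, and leaving out solvent replicate 2 gave 1.60.

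The Cxcr4 alignments lay at chr1:130484776-130488870 on the minus strand (mm9), which holds 2 exons. Distinct positions on them numbered 46 and 79 in solvent and 214 and 175 in MS-275, of which 46, 79, 205 and 170 lay in the long last exon. The short first exon had 0 and 0 in solvent and 9 and 5 in MS-275. With repeats the counts were 54, 79, 451 and 175, so that most repeats lay in 1 library. The log2 difference was 1.72 on distinct positions with the block (limma-voom adjusted p = 0.000165) and likewise without it (adjusted p = 0.0212).

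Cxcr7, which encodes the other CXCL12 receptor (now called Ackr3), had values of 0.0583 and 0.0484 in solvent and 0.0835 and 0.107 in MS-275 (log2 difference 0.77, SE 0.256, limma adjusted p = 0.0342 with the block, and 0.0969 with quantile and 0.145 with median-ratio scaling as well). Cxcl12, the ligand, had 0.0729 and 0.0325 in solvent and 0.0517 and 0.0336 in MS-275, and did not pass (log2 difference -0.21, SE 0.28, adjusted p = 0.620 with the block). The ligand's groups overlapped, while those of both receptors did not.

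Afp encodes the main plasma protein of fetal liver and visceral endoderm. Its value was 0.00127 and 0.00023 in solvent and 0.0126 and 0.00748 in MS-275. These were the lowest values of the 9 genes in both solvent libraries, and the groups were well apart. The ratios within replicate pairs were 9.90 and 32.5, against a log2 difference of 1.37 with SE 0.248 (limma adjusted p = 0.000778 with the block and 0.0772 without), because the pseudocount of 0.005 exceeds both solvent values. With a pseudocount of 0.001 the log2 difference was 2.68 and with one of 0.02 it was 0.53. Quantile normalization gave 0.99. With no block it was 1.12 without MS-275 replicate 1 and 1.62 without MS-275 replicate 2.

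The Afp signal rested on few alignments. Distinct exon positions numbered 1 and 1 in solvent and 13 and 11 in MS-275 over 15 exon blocks at chr5:90919740-90937933 on the plus strand (mm9). The pooled ratio per exon position sequenced was 12.5 (exact 95% interval 3.10 to 109, which covers counting error only, since repeats of a molecule are not marked). All 26 positions fell in blocks 11 to 15, the 3′ part of the gene, and blocks 1 to 10 had 0 in every library. Introns held 0 and 0 positions in solvent and 11 and 2 in MS-275, so 1 treated library had nearly as many intron as exon positions. In limma-voom the log2 difference was 3.10 (SE 0.792, adjusted p = 0.0322) and 3.12 with the block (SE 0.740, adjusted p = 0.00263).

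Sox17, an HMG-box factor needed for definitive endoderm and active in primitive endoderm, had values of 0.00686 and 0.00113 in solvent and 0.0230 and 0.0115 in MS-275. Both treated libraries were above both controls, and the controls differed 6.07-fold from each other. The log2 difference was 1.24 in the first replicate pair and 1.43 in the second (1.33, SE 0.286, limma adjusted p = 0.00266 with the block; SE 0.531, adjusted p = 0.231 without). Without the block it was 0.86 when solvent replicate 2 was left out, 2.08 with a pseudocount of 0.001 and 0.63 with one of 0.02. Distinct exon positions numbered 5 and 21 in solvent and 52 and 77 in MS-275 at chr1:4481009-4486494 on the minus strand (mm9), a pooled ratio of 5.16 (exact 95% interval 3.36 to 8.19). Nearly all lay in the last of 5 exon blocks (134 of 155), which makes up 55.2% of the exon length. In limma-voom the log2 difference was 2.65 (adjusted p = 0.0239) and 2.36 with the block (adjusted p = 0.000535).

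Sox7, the F-group relative of Sox17 that also acts in primitive endoderm and vessels, had 0.00501 and 0.00166 in solvent and 0.00778 and 0.00182 in MS-275. The groups overlapped, and each second-numbered library lay below each first-numbered one. The log2 difference was 0.19 (SE 0.244, limma adjusted p = 0.597 with the block). Distinct positions numbered 9 and 16 in solvent and 10 and 28 in MS-275, and 15 of its 3253 stretches of 35 bases occur in other genes, Sox13 among them. Sox18, the remaining F-group gene, had 0.0019 and 0.00212 in solvent and 0.00227 and 0.00341 in MS-275 (log2 difference 0.16, SE 0.224). Whether Sox17 changed more than Sox7 or Sox18 was not tested.

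Gata4 and Gata6 encode zinc-finger factors, and GATA6 is the earliest regulator of primitive endoderm known in the blastocyst. Gata4 had 0.0195 and 0.00637 in solvent and 0.0308 and 0.00893 in MS-275. Gata6 had 0.00971 and 0.00167 in solvent and 0.0120 and 0.00344 in MS-275. Both genes were higher with MS-275 within each replicate pair, by 1.58-fold and 1.40-fold for Gata4 and by 1.24-fold and 2.06-fold for Gata6, yet the difference between replicates of 1 group was larger, from 3.07-fold to 5.81-fold. The log2 differences were 0.42 for Gata4 (SE 0.307, limma adjusted p = 0.333 with the block) and 0.27 for Gata6 (SE 0.265, adjusted p = 0.475), and both turned negative under quantile normalization, at -0.091 and -0.16.

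Distinct positions on Gata4 exons numbered 39 and 57 in solvent and 39 and 94 in MS-275, and on Gata6 exons 9 and 30 in solvent and 18 and 40 in MS-275. The pooled ratios were 1.44 (exact 95% interval 1.10 to 1.89) and 1.55 (1.01 to 2.38), counting error only, and the limma-voom fit over libraries did not call either gene. A noncoding gene, 1010001N08Rik, overlaps the start of Gata6 on the other strand and held 1, 3, 4 and 4 positions in the libraries. No strand marking is given in the sources used here, so reads of the overlap cannot be assigned.

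Foxa1 and Foxa2 encode forkhead factors of gut and liver. Foxa1 had 0.00353 and 0.00334 in solvent and 0.00632 and 0.00267 in MS-275, higher in 1 replicate pair (1.79-fold) and lower in the other (0.799-fold). Its log2 difference was 0.14 (SE 0.251, limma adjusted p = 0.712 with the block) and turned to -0.33 under quantile normalization. Foxa2 had 0.00197 and 0.00082 in solvent and 0.00575 and 0.00217 in MS-275, so both treated libraries were above both controls, by 2.92-fold and 2.65-fold within pairs. It did not pass (log2 difference 0.46, SE 0.227, limma adjusted p = 0.143 with the block and 0.461 without).

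On distinct positions Foxa2 had 5 and 4 in solvent and 9 and 13 in MS-275, a pooled ratio of 2.54 (exact 95% interval 1.12 to 6.27), and limma-voom gave a log2 difference of 1.26 (SE 0.652, adjusted p = 0.222). Foxa1 had 23 and 11 in solvent and 16 and 22 in MS-275. The 2 genes share 4 stretches of 35 bases, under 1% of either.

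Hnf4a was the 1 gene of the set that was lower. Its value was 0.0334 and 0.0160 in solvent and 0.0136 and 0.00588 in MS-275, so the highest treated library lay below the lowest control. Within replicate pairs it fell to 0.409 and 0.368 of the solvent value, 2 ratios that lie close together. The log2 difference was -0.99 with a standard error of 0.307 in the fit with the block (limma adjusted p = 0.0245) and of 0.636 without it (adjusted p = 0.507). Without the block it was -0.56 when solvent replicate 1 was left out, -0.61 when MS-275 replicate 2 was left out and -0.57 with a pseudocount of 0.02.

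The alignments of Hnf4a showed a narrower spread than its values. Distinct exon positions numbered 136 and 137 in solvent and 41 and 64 in MS-275 at chr2:163332544-163398646 on the plus strand (mm9), a pooled ratio of 0.40 (exact 95% interval 0.316 to 0.503). In limma-voom the log2 difference was -1.32 (SE 0.301, adjusted p = 0.0216) and -1.33 with the block (SE 0.246, adjusted p = 0.000362). The last of 14 exon blocks, 59.0% of the exon length, held 86.5% of the positions, with 118 and 121 in solvent and 35 and 53 in MS-275, and blocks 1 to 5 held 0 in all 4 libraries. These positions do not tell which of the start sites printed above was used. A noncoding gene on the other strand, 0610008F07Rik, overlaps Hnf4a and held 0 positions in every library.

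**Figure D2:**
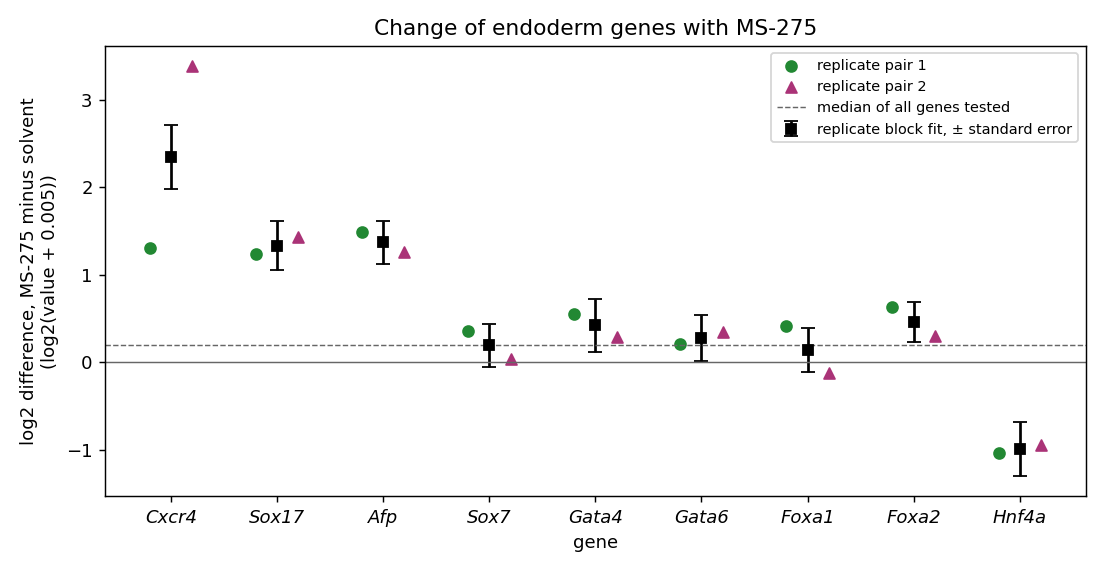
Log2 difference (MS-275 minus solvent, on log2(value + 0.005)) of each endoderm gene, with circles and triangles for the 2 replicate pairs and squares for the estimate of the replicate block fit ± standard error; the dashed line is the median of all genes tested, 0.20. On this scale Cxcr4 has the widest gap between pairs (1.31 and 3.38), and Sox17, Afp and Hnf4a have pairs close together. The other 5 lie around the dashed line. The pseudocount narrows the gap for Sox17 (ratios within pairs 3.35 and 10.2) and Afp (9.90 and 32.5). Standard errors draw largely on the variance of other genes.

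Counted by library order, 4 of the 9 genes (Cxcr4, Afp, Sox17 and Foxa2) had both treated libraries above both controls and 1 (Hnf4a) had both below, where 32.3% and 12% of all tested genes did. Within replicate pairs 7 were higher in both, against a background of 50%, and 1 was lower in both, against 26.5%. Another scaling moved the median of all genes from 0.20 to -0.032 (quantile) and -0.012 (median-ratio), and differences are to be read against that shift. Under quantile normalization the median of the 9 was -0.091, and Sox7, at -0.24, joined Gata4, Gata6 and Foxa1 below 0. Cxcr4, Sox17, Afp and Hnf4a kept their directions and, with the block, their calls. The share of all genes called higher also moved, from 21% to 14.4%, and that called lower from 6.46% to 14.6%.

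Levels between genes were compared on distinct positions per kilobase of exon and per 1000000 exon positions of the library. In solvent Cxcr4 (3.51 and 6.33) and Hnf4a (3.74 and 3.96) led and overlapped each other. Gata4 followed at 1.38 and 2.11, below both, and then Gata6 (0.389 and 1.36), Foxa1 (0.995 and 0.50), Sox17 (0.219 and 0.965) and Sox7 (0.376 and 0.703), which overlapped one another. Foxa2 (0.291 and 0.245) lay inside the range of Sox17, and Afp was lowest at 0.0661 and 0.0695, below the next gene in both libraries.

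With MS-275 the order on the same scale differed. Cxcr4 stood alone at 20.0 and 12.6. Sox17 (2.79 and 3.17) came next and overlapped Gata4 (1.69 and 3.12), and Hnf4a (1.38 and 1.66) lay below both and overlapped Gata6 (0.954 and 1.63). Afp, at 1.05 and 0.685, overlapped Gata6, Foxa1 (0.849 and 0.896), Sox7 (0.513 and 1.10) and Foxa2 (0.643 and 0.713).

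**Figure D3:**
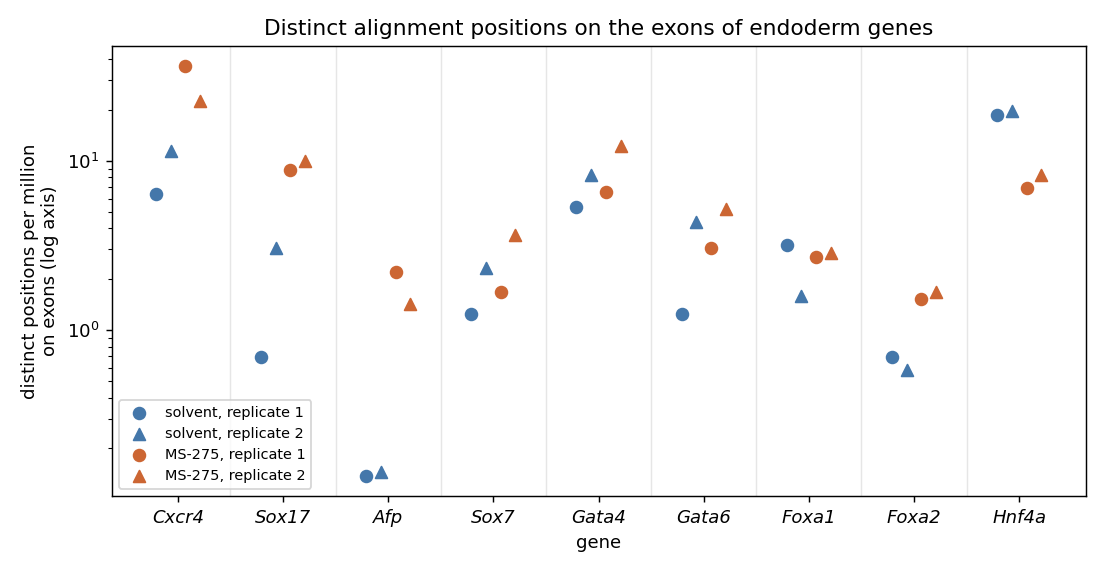
Distinct alignment positions on the exons of each endoderm gene per 1000000 exon positions (log axis, not divided by gene length), with solvent in blue and MS-275 in orange, circles for the alignments deposited with replicate 1 and triangles for those with replicate 2. Afp stands on 1 position in each solvent library, and Hnf4a has solvent points close together above both MS-275 points.

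Family relatives outside the set were read next, 7 in all with 6 tested. With the block 3 were higher, 0 lower and 3 did not pass, and their median log2 difference was 0.64. Over all genes tested that fit called 21% higher and 6.46% lower, and with quantile normalization as well 14.4% and 14.6%. Counts in this list and those below are to be read beside these shares. Gata1, a blood-lineage factor, had 0.0228 and 0.00472 in solvent and 0.103 and 0.0365 in MS-275 (log2 difference 2.02, SE 0.298, limma adjusted p = 0.000145). Gata2 had 0.0177 and 0.0083 in solvent and 0.0272 and 0.0278 in MS-275 (0.90, SE 0.323, adjusted p = 0.0481). Gata3 had 0 and 0.00248 in solvent and 0.0036 and 0.00889 in MS-275 (0.84, SE 0.234, adjusted p = 0.0144). With quantile normalization and the block Gata1 alone passed, and Gata5, Sox18 and Foxa3 turned below 0. These GATA genes act mainly outside endoderm, and Gata5, which acts in endoderm and heart, did not pass (0.30, SE 0.215). Foxa3, the third FOXA gene, did not pass either, at 0.0117 and 0.00709 in solvent and 0.0153 and 0.0133 in MS-275.

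Of 16 genes of primitive endoderm and yolk sac, 4 were higher with the block and 0 were lower, beside 21% and 6.46% of all genes. The other 12 did not pass, and the median of the list was 0.24. With quantile normalization and the block 1 was higher (Plat) and 2 were lower (Nid1 and Sparc). The median was -0.00090 with median-ratio scaling, -0.17 without solvent replicate 2 and -0.32 without MS-275 replicate 1, against 0.95 without solvent replicate 1 and 0.98 without MS-275 replicate 2. Plat, tissue plasminogen activator and a parietal endoderm product, had 0.0163 and 0.0148 in solvent and 0.165 and 0.205 in MS-275 (log2 difference 3.20, SE 0.263, limma adjusted p = 1.39e-06 with the block). Amn, a part of the cubilin uptake receptor of visceral endoderm, had 0.00338 and 0.00416 in solvent and 0.0139 and 0.0146 in MS-275 (1.14, SE 0.281, adjusted p = 0.00695). Pdgfra, an early primitive endoderm receptor, and Pth1r were the other called genes, at 1.06 and 1.03. The basement membrane genes of this list did not pass: the lowest were Nid1 at -0.54 (SE 0.237) and Sparc at -0.53 (SE 0.236).

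Of 15 genes of definitive endoderm and primitive streak, 14 were tested. With the block 6 were higher and 2 lower, beside 21% and 6.46% of all genes, and 6 did not pass. The median was 0.56, and it ranged from 0.31 to 0.98 when 1 library was left out. Pyy, a gut peptide gene, had 0 and 0.00464 in solvent and 0.0316 and 0.0753 in MS-275 (log2 difference 2.96, SE 0.306, limma adjusted p = 8.42e-06 with the block). Krt18, a keratin of simple epithelia, had 0.0394 and 0.0332 in solvent and 0.156 and 0.130 in MS-275 (1.84, SE 0.244, adjusted p = 6.37e-05). Cldn6, Lhx1, Hhex and Krt8 were also higher, from 1.13 to 1.59. Trh, at 0.705 and 2.57 in solvent and 0.452 and 0.50 in MS-275, was lower (-1.49, SE 0.357, adjusted p = 0.00568), as was Otx2, an epiblast and anterior factor, at 0.352 and 0.279 against 0.152 and 0.0830 (-1.44, SE 0.226, adjusted p = 0.000259).

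The streak regulators Eomes, Mixl1 and Gsc did not pass. Lhx1, named above, did (1.24, SE 0.254, limma adjusted p = 0.00197 with the block). Krt8 lost its call with quantile normalization and the block (0.62, limma adjusted p = 0.157), which left 5 higher and 2 lower. Eomes had a log2 difference of 0.73 (SE 0.313, limma adjusted p = 0.0971 with the block), Mixl1 of 0.22 (SE 0.264) and Gsc of -0.03 (SE 0.222). Cer1 was listed at 0 in 3 libraries and was below the filter.

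Of 15 liver and gut genes, 14 were listed and 10 were tested. With the block 4 were higher and 1 lower, beside 21% and 6.46% of all genes, and 5 did not pass. The median was 0.36, and it ranged from -0.12 (solvent replicate 2 left out) to 0.64 (solvent replicate 1 left out). Pdx1, a pancreas and duodenum factor, had 0 and 0.00066 in solvent and 0.0138 and 0.0121 in MS-275 (log2 difference 1.75, SE 0.256, limma adjusted p = 0.000136 with the block). Prox1, a liver and lymphatic factor, had 0.0073 and 0.00405 in solvent and 0.0229 and 0.0171 in MS-275 (1.24, SE 0.298, adjusted p = 0.00593). Onecut1 (1.0) and Cdx2 (0.94) were the others called higher. Nr5a2, which acts in embryonic stem cells as well as in liver, was lower, at 0.333 and 0.294 against 0.128 and 0.0278 (-2.27, SE 0.318, adjusted p = 9.68e-05).

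With quantile normalization and the block 2 were higher and 2 lower: Prox1 (adjusted p = 0.0937) and Onecut1 (adjusted p = 0.277) lost their calls in limma, and Apob, at -0.66, gained one. The called liver and gut genes that were higher encode transcription factors. Among secreted liver products Apoa1, Apoa2, Apob and Rbp4 did not pass (log2 differences from -0.32 to 0.39), and Alb, Ttr, Fga and Fgb were below the filter, with Alb and Ttr listed at 0 in 3 libraries. The apolipoprotein genes went both ways, with Apoa1 at 0.14 (SE 0.277), Apoa2 at -0.32 (SE 0.301) and Apob at -0.25 (SE 0.229). Whether they follow Hnf4a was not tested.

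Of 18 genes of endoderm signalling and cofactors, all were tested. With the block 2 were higher and 3 lower, beside 21% and 6.46% of all genes. The other 13 did not pass, and the median of the list was -0.14. Fgfr2 had 0.0377 and 0.0472 in solvent and 0.114 and 0.102 in MS-275 (log2 difference 1.26, SE 0.254, limma adjusted p = 0.00172 with the block), and Cxcr7, given above, was the other. Fgf4, the ligand that drives primitive endoderm in the blastocyst, was lower, at 0.573 and 0.397 against 0.269 and 0.0922 (-1.56, SE 0.254, adjusted p = 0.000337). Foxh1, a DNA-binding partner of SMAD proteins, was lower as well, at 0.101 and 0.0741 against 0.0569 and 0.0223 (-1.15, SE 0.276, adjusted p = 0.00574), and so was Smad3 (-1.03, SE 0.282, adjusted p = 0.0127). Nodal, the ligand of that pathway, did not pass (-0.12, SE 0.231), nor did its coreceptor gene Tdgf1 (-0.80, SE 0.340). With quantile or median-ratio scaling and the block 1 gene of this list was higher and 6 were lower, the added ones being Tdgf1, Acvr1b and Acvr2b, and Cxcr7 no longer passed.

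**Figure D4:**
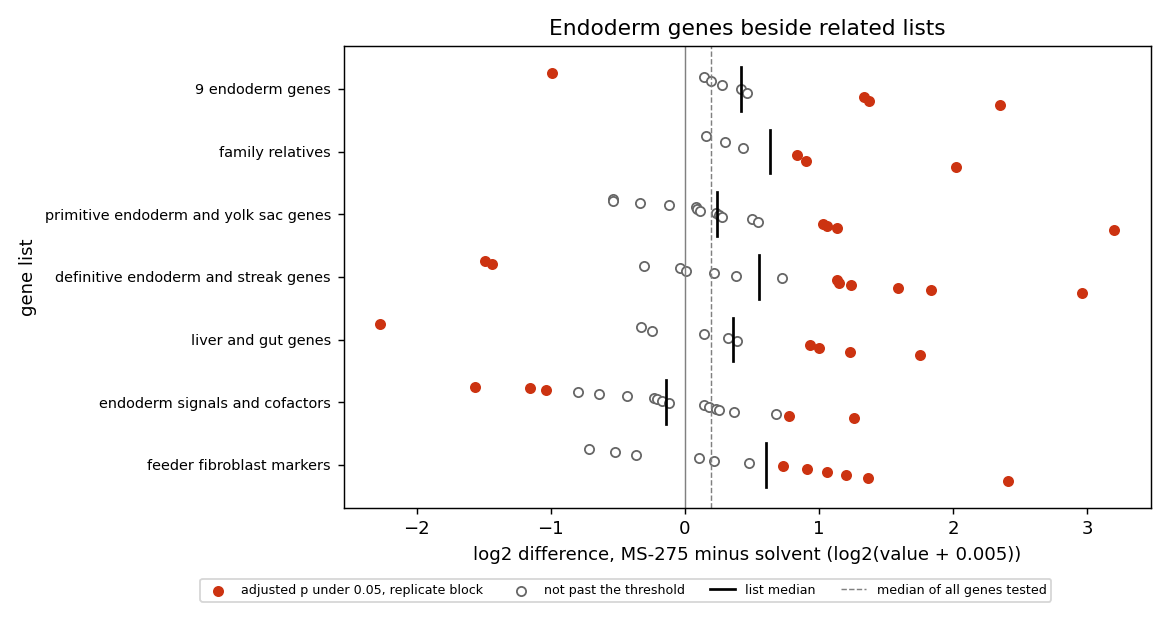
Log2 difference (MS-275 minus solvent) of the 9 endoderm genes and of each related list in the replicate block fit, with filled points for an adjusted p under 0.05, open points for the rest, a black bar for each list's median and a dashed line for the median of all genes tested. Called points lie on both sides of 0 for the 9 genes and for the definitive endoderm, liver and gut, and signal lists, and above 0 alone for family relatives, primitive endoderm and feeder markers, whose median is 0.61.

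Markers of other cells that the cultures could hold were read beside these results. The summed value of 12 feeder fibroblast markers was 0.331 and 0.292 in solvent and 0.628 and 0.669 in MS-275. With the block 6 of the 12 were higher and 0 lower, beside 21% and 6.46% of all genes, and none was at 0 in all libraries. Col1a1 rose most, by 2.41 on the log2 scale, and Fbn1 by 1.37, while Dcn (-0.72) and Col3a1 (-0.52), also fibroblast genes, did not pass. With quantile normalization and the block 4 were higher and 3 lower (Dcn, Col3a1 and Prrx1). The summed value and 6 of the 12 markers were thus higher beside Cxcr4, Sox17 and Afp, and their part in those results was not tested.

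Cxcr4, Sox17 and Sox7 are also used by vessels, Gata4 and Gata6 by heart and Foxa2 by floor plate. Of 6 endothelial markers 5 were tested, 2 were higher and 1 lower, and Emcn was listed at 0 in all 4 libraries. Kdr (1.79) and Cdh5 (0.95) were the higher ones and Pecam1 (-1.58), also a gene of embryonic stem cells, the lower one, so that the summed value was 0.591 and 0.598 in solvent and 0.432 and 0.129 in MS-275. Of 6 cardiac markers 5 were tested and 3 were higher, among them Myh6 (1.5) and Tnnt2 (1.18), with summed values of 0.0201 and 0.00985 in solvent and 0.0690 and 0.0430 in MS-275. Of 5 floor plate markers 4 were tested and 1, Spon1 (0.99), was higher, and Ntn1 (-0.71) did not pass. Summed floor plate values were 0.0247 and 0.0447 in solvent and 0.0342 and 0.0279 in MS-275, and Shh was at 0.00187 at most. With quantile normalization and the block the higher and lower counts were 1 and 2 for endothelial, 1 and 0 for cardiac and 0 and 1 for floor plate markers. Over all genes the shares called higher and lower were 21% and 6.46% with the block, and 14.4% and 14.6% with quantile normalization as well. The part of these cells in the results was not tested.

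Among 8 embryonic stem cell markers 0 were higher and 2 were lower in the limma fit with the block, with a median of -0.37. Over all genes that fit called 21% higher and 6.46% lower. Of the 8 markers 0 were higher in limma at an unadjusted p under 0.05 and 0 in limma-voom. Esrrb had 0.858 and 1.32 in solvent and 0.603 and 0.289 in MS-275 (log2 difference -1.34, SE 0.341, limma adjusted p = 0.00844 with the block). Pou5f1 had 0.727 and 2.33 in solvent and 0.575 and 0.786 in MS-275 (-0.95, SE 0.339, adjusted p = 0.0473). Nanog, at -0.23, and Dppa5a, at -0.22, were the highest of the list and did not pass. The median of this list turned with the library left out, to 0.56 without solvent replicate 2 and 0.25 without MS-275 replicate 1, against -1.46 without solvent replicate 1 and -1.07 without MS-275 replicate 2 (no block).

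The gene with the pattern most like each of the 9, by the Euclidean distance between mean-centred log2 values over the 4 libraries among 14736 genes, was Abhd3 for Cxcr4 (distance 0.199), Trnp1 for Afp (0.0521) and 9030418K01Rik for Sox17 (0.0537). For Hnf4a it was AL118220 (0.0419). For the others it was Zfp13 for Sox7, 2310003H01Rik for Gata4, Pde5a for Gata6, Ggnbp1 for Foxa1 and Klc3 for Foxa2, at 0.0274 to 0.0505. Cxcr4 had the most distant neighbour of the 9.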

How the data were processed

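RNA of TBV2 cells was selected for poly(A), primed with random hexamers and sequenced as short reads, which the authors aligned to mm9. The authors deposited for each library a normalized expression value per gene (a signal, with no count beside it) and the alignments. Shorter tables with the authors' own comparisons were not used. Tests used limma 3.58.1 in R 4.3.3, with a trend and Benjamini-Hochberg adjustment over 20336 genes, on log2(value + 0.005) for genes at 0.001 or more in at least 2 libraries. Alignments were counted at distinct positions on GENCODE M1 exons (mm9) and tested with limma-voom where the 4 libraries summed to 20 or more. Column headers of the shorter tables call replicate 1 of both groups old. Replicate numbers may therefore mark a shared batch, but no source used here says which step was shared. Deviations from group means correlated between same-numbered libraries (r = 0.764 over 20336 genes, and 0.522 over 18951 genes on positions), so the blocked fit is printed beside the main fit without a block. Intervals of pooled ratios are exact 95% binomial intervals. Scripts were tested on simulated data. The values carry no depth of their own, but they followed the alignment file of the other replicate in the group. If they were computed from that file, replicate 1 values rest on 9785619 (solvent) and 10915650 (MS-275) alignments. Replicate 2 values would then rest on 23467935 (solvent) and 20008841 (MS-275). Named genes were the 9 genes, the 2 largest and 2 smallest differences in each list and each gene's nearest neighbour; other names were added after their values were seen. The genes and lists were chosen with earlier results of these data known. Alternatives were other pseudocounts, filters, scalings, replicate blocks, positions and leaving out each library.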

Additional observations from a re-analysis of the deposited data

How the results depend on the processing

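Cxcr4, Sox17, Afp and Hnf4a kept their direction in every alternative run. The replicate block, alone or with another scaling or pseudocount, and the position counts changed their calls. In all of those fits 3 of the 9 endoderm genes were called higher and 1 lower. Limma on all 4 libraries without the block gave 0 and 0. The block changed no other call among the 9. The block moved the genes called higher from 1 to 4277 and lower from 0 to 1314. Combined with other settings it gave 2936 and 2961 (quantile), 3344 and 2806 (median-ratio), 4216 and 1220 (pseudocount 0.001) and 3790 and 1158 (pseudocount 0.02). Positions gave 2636 and 883 without and 5321 and 2350 with the block, and 5273 and 2101 on all alignments with it. Genes of the related lists are called other endoderm genes here, though the 6 family relatives include GATA genes that act mainly outside endoderm. Among them (lists of 16, 14, 10, 18 and 6 tested on values) the block gave 19 higher, 3 of them family relatives, and 6 lower. With the same combinations it gave 10 and 12, 17 and 11, 18 and 6, and 17 and 6. Positions gave 10 and 6, 24 and 11 (block), and 22 and 11 (all alignments). Over all genes the block called 21% higher and 6.46% lower, or 14.4% and 14.6% with quantile. On positions the shares were 13.9% and 4.66%, and 28.1% and 12.4% with the block. In limma without the block 0 genes were higher under pseudocounts 0.001 or 0.02, no filter, quantile, median-ratio or no trend, and 466 higher and 65 lower with a mean of at least 0.01 (3 and 1 other endoderm genes). The median of the 9 was 0.16 with pseudocount 0.02 (block or not), 0.88 with the mean filter (4 tested), 0.22 with median-ratio (block or not), 0.80 on positions and 0.63 on all alignments; it was -0.091 with quantile (block or not).

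Fits that leave out 1 library, without the block and with a lone library assumed to vary like the others, gave 72 to 414 genes higher and 12 to 135 lower, 0 to 1 and 0 of the 9, 1 to 2 and 0 to 3 other endoderm genes, and a median from -0.14 (without MS-275 replicate 1) to 0.84. The highest differences without 1 library were 0.42 (Foxa1), 1.10 (Gata4), 0.84 (Gata6) and 0.65 (Sox7). Differences turned below 0 with quantile, blocked or not, for Foxa1 (-0.33), Gata4 (-0.091), Gata6 (-0.16) and Sox7 (-0.24). They did so without MS-275 replicate 1 for Foxa1 (-0.14), Gata4 (-0.26), Gata6 (-0.23) and Sox7 (-0.26), and without solvent replicate 2 for Gata4 (-0.13), Gata6 (-0.30) and Sox7 (-0.10). Of the single-gene values 117 kept direction and call, 34 were newly called and 15 turned. Why was not tested. Afp and Foxa2 rest on 26 and 31 distinct positions in all.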
